A study of Mus musculus with 1677 samples.

Results

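The genes described here are 32 markers of T and B lymphocytes, chosen by name from the deposited count table: 18 of T cells, 13 of B cells and the lymphotoxin gene Ltb, which both lineages express. All 32 were rows of that table, among 24533 rows with a single name. The study measured polyadenylated RNA in 22 tissues of wild-type C57BL/6J mice at 12 clock times, 2 h apart, given as ZT (hours after lights on). The mice were 10 weeks old when bought, had 2 weeks of chow and then ate a Western diet (45% fat, 17% sucrose) for 7 weeks, either at any hour (ad-libitum feeding, ALF) or with food given for 9 h of the dark phase only, between ZT13 and ZT22 (time-restricted feeding, TRF). Of its 1035 libraries 517 were of ALF and 518 of TRF mice, in groups of 2 libraries (507 groups) or 1 library (21 groups) for each tissue, feeding and clock time. Total counts per library ran from 2.26 M to 501 M, with a median of 11.3 M (M, mega). In 16 libraries the whole profile was closest to that of another tissue: 6 of iWAT resembled eWAT, and 1 library each of duodenum and ileum (TRF, ZT4, replicate 2) resembled the other, so each is called by its label. The labels do not say that replicates came from separate animals, so p-values measure the spread between these libraries.

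T cells recognise peptides through a surface receptor whose signal leaves by the CD3 chains and the kinases Lck and Zap70, and B cells recognise antigen through surface immunoglobulin, whose signal leaves by Cd79a and Cd79b. Both kinds of cell travel between blood, spleen and lymph nodes, drawn into T cell and B cell zones by chemokines that the stroma of these organs makes, and their number in mouse blood is known to vary over the day. Lymph nodes lie inside fat depots: the inguinal fat pad surrounds one, the pancreas borders others, and the small intestine carries lymphoid follicles in its wall. A level measured in a whole tissue therefore counts resident cells, cells in its blood and any lymphoid organ dissected with it. In such bulk samples fewer lymphocytes and less RNA per lymphocyte cannot be told apart.

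The promoters below are shown because members of both lineages moved together in several tissues. RefSeq (GRCm38.p6) promoter windows, 250 bases before to 50 bases after the start, were at hand for 22 of the 32 members. Of 11 short motifs searched on both strands, 2 were chosen for display after their counts were seen: CAGGAAG, a form bound by ETS factors, and CAGGTG, an E-box bound by E proteins. The 3 promoters printed each hold 1 of either, in capitals, written 5′ to 3′ on the strand of the gene. Cd3e lies on the minus strand (chr9:45009562-45009861), and Cd79a (chr7:24897247-24897546) and Ltb (chr17:35194257-35194556) on the plus strand.
Cd3e: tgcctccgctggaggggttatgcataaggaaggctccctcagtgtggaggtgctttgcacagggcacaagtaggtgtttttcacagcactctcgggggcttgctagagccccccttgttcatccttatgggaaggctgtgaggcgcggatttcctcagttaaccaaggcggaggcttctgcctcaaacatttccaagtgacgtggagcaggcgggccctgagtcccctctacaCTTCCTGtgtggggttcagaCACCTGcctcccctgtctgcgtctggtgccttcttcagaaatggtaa
Cd79a: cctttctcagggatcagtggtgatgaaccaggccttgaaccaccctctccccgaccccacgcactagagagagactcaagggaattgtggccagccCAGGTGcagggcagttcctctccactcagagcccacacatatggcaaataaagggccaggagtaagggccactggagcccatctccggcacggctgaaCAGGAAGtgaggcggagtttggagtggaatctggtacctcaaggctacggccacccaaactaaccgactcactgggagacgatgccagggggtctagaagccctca
Ltb: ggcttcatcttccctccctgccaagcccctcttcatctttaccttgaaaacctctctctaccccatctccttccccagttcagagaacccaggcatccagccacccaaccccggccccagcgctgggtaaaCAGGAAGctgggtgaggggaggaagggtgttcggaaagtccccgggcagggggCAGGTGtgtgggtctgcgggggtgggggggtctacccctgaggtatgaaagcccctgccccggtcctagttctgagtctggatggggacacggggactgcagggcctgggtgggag

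CAGGTG was in 16 of the 22 member promoters (72.7%), in 8 of 12 of T cell members and 7 of 9 of B cell members, against 22.6% of the 27025 promoters in the table. CAGGAAG was in 9 of 22 (40.9%), against 14.8% of all, and was split unevenly: 7 of 12 T cell members held it and 1 of 9 B cell members did. Its overlapping variant AGGAAGT was in 8 of 22, against 10.7%. The clock-related E-box CACGTG was in 3 of 22 (Cd37, Lat and Zap70), against 8.09%. The E-box CAGCTG was in 4 of 22 (18.3% of all), the Ikaros motif TGGGAA in 10 (28.3%), the RUNX motif TGTGGTT in 2, Il7r and Lck (6.09%), and the EBF consensus in 1, Cd22 (1.06%). The octamer ATGCAAAT (1.97%), the D-box TTATGTAA (1.11%) and the NF-kappaB consensus (0.107%) were in 0 of the 22 windows. These are matches of letters, not measured binding.

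Levels were expressed as CPM (the count of a gene as a share of its library's total, in parts per M), scaled by TMM within each tissue, so levels set across tissues are only roughly comparable. The summed level of the 32 members was highest in spleen (5784 to 10404 CPM over 44 libraries, median 8001), followed by inguinal fat (iWAT; 66.8 to 5617 CPM over 48, median 1934). Every spleen library was above every iWAT library. Each of the 32 members had its highest tissue median in spleen and its second in iWAT.

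Lung came next in the sum (200 to 760 CPM, median 493) and was the next tissue for 24 of the 32 members. Below it stood pancreas (median 253), ileum (240), duodenum (178) and jejunum (171), whose ranges overlapped. Adrenal gland had a median of 123, with Tcf7, a transcription factor of T cells, alone at a median of 92.4 CPM. Epididymal fat (eWAT) had a median of 82.3 and heart of 37.4. The median of the other 12 tissues lay between 10.8 (dentate gyrus) and 32.2 (liver).

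The ratio of summed B cell to summed T cell members depends on the lengths of the genes and is compared between tissues only. Its median was 3.45 in spleen, 1.40 in iWAT, 1.45 in pancreas, 1.48 in lung, 1.03 in duodenum and 0.337 in liver. Where lung was not the tissue after spleen and iWAT for a member, that place went to duodenum for the coreceptors Cd4 and Cd8a and for the B cell coactivator Pou2af1, pancreas for Cd6, heart for the costimulatory receptor Cd28, liver for Zap70, adrenal for Tcf7, and ileum for the complement receptor Cr2. In iWAT, lung and spleen the defining markers Cd3e and Cd79a were above 0 in every library, whereas in pancreas Cd3e was at 0 in 4 libraries.

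In iWAT every member rose with TRF. All 32 passed the edgeR quasi-likelihood test with Benjamini-Hochberg adjustment over all genes, while 35.1% of the 14609 genes tested there were higher in TRF. The log2 fold changes (TRF minus ALF) ran from 0.68 for Cd247 to 1.5 for Ms4a1, with a median of 1.29, beside a median of 0.02 over all genes. For each member the TRF mean was above the ALF mean at 10 of 12 clock times.

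Among the T cell receptor chains, Cd3e, a signalling chain of the CD3 complex, ran from 0.352 to 70.4 CPM in 24 ALF libraries (median 13.1) and from 16.2 to 63.8 in 24 TRF libraries (median 36.0). The groups overlapped, with 8 ALF libraries above the lowest TRF library, and the highest library of all was one of ALF. Its log2 fold change was 1.39 ± 0.29 (SE; adjusted p = 0.0001). Cd3d and Cd3g, the other CD3 chains, gave 1.43 ± 0.31 and 1.40 ± 0.30. Cd247, the zeta chain, which natural killer cells also use, gave 0.68 ± 0.15 (adjusted p = 0.000191).

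The coreceptors rose to a like extent. Cd4, of helper T cells, ran from 1.27 to 157 CPM in ALF (median 33.9) and from 48.7 to 151 in TRF (median 96.2), a log2 fold change of 1.44 ± 0.29. Cd8a, of cytotoxic T cells, ran from 0.563 to 155 (median 25.7) and from 32.6 to 146 (median 75.2), a log2 fold change of 1.36 ± 0.30. In both, 7 or 8 of the ALF libraries were above the lowest TRF library. The kinases and adaptor that carry the receptor signal inward, Lck, Zap70 and Lat, gave 1.31, 1.16 and 1.28.

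Il7r, the receptor for the survival cytokine interleukin 7, had the smallest adjusted p of the members (1.51e-05). It ran from 6.67 to 142 CPM in ALF (median 21.1) and from 27.1 to 142 in TRF (median 54.8), a log2 fold change of 1.11 ± 0.20. Ccr7, the receptor that guides T cells into lymph nodes, ran from 1.24 to 200 (median 26.4) and from 27.0 to 151 (median 78.7), with 1.25 ± 0.31. Of the remaining T cell members, Cd2, Cd5, Cd6, Cd27, Cd28, Cd8b1 and Tcf7 gave between 1.07 (Cd2) and 1.40 (Cd8b1).

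The B cell members rose by similar factors. Cd79a, a signalling chain of the B cell receptor, ran from 0.845 to 507 CPM in ALF (median 76.8) and from 86.9 to 363 in TRF (median 205). Again the groups overlapped, with 10 ALF libraries above the lowest TRF one. Its log2 fold change was 1.32 ± 0.32 (adjusted p = 0.000603). Ms4a1, the gene of the CD20 antigen, ran from 0.634 to 380 (median 57.8) and from 61.3 to 280 (median 151), with 1.5 ± 0.34. Cr2, the complement receptor of follicular and marginal zone B cells, gave 1.43 ± 0.32, and Cxcr5, which guides B cells into follicles, gave 1.34 ± 0.31.

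Pax5, the transcription factor that fixes B cell identity, had the largest adjusted p of the 32 (0.00429), with a log2 fold change of 0.94 ± 0.28. Cd37, a tetraspanin that myeloid cells also express, gave 0.99 ± 0.18. Ltb, the shared lymphotoxin gene, ran from 1.41 to 243 CPM in ALF (median 40.2) and from 40.5 to 212 in TRF (median 108), a log2 fold change of 1.22 ± 0.29. Over the lineages the medians were 1.28 for the 18 T cell members and 1.32 for the 13 B cell members.

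**Figure D1:**
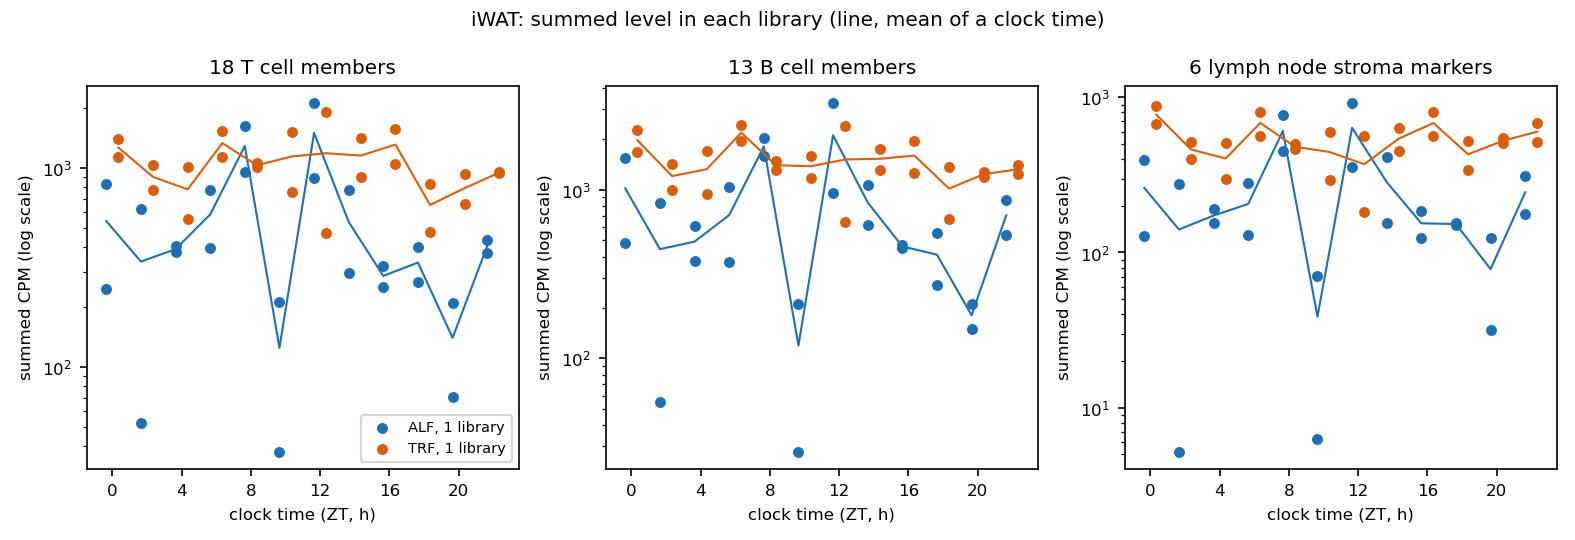
Summed level (CPM, log axis) of the 18 T cell members, the 13 B cell members and 6 lymph node stroma markers in each iWAT library by clock time (ZT, h), ALF and TRF in separate colours with a line through the means of a clock time. ALF libraries spread from 66.8 to 5617 CPM in the sum of members, while TRF libraries lie between 1161 and 4450, and the stroma markers follow the same libraries.

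The ALF libraries of iWAT were widely spread. The sum of the 32 members ran from 66.8 to 5617 CPM in ALF (median 907) and from 1161 to 4450 in TRF (median 2477). Of the 24 ALF libraries 15 lay below the lowest TRF library and 4 lay above the TRF median. The lowest library (ALF, ZT10, replicate 2) and the highest (ALF, ZT12, replicate 2) were 84.1-fold apart and in the same feeding group at neighbouring clock times.

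Genes of lymph node stroma and of its high endothelial venules, the vessels through which lymphocytes enter, moved with the members. The summed level of 6 such markers (Glycam1, Chst4, Ccl21a, Ccl19, Cxcl13 and Madcam1) ran from 5.19 to 915 CPM in ALF (median 167) and from 182 to 877 in TRF (median 521). Glycam1, a mucin made by these venules, was at a median of 15.2 CPM in ALF and 52.5 in TRF, with a log2 fold change of 1.60 ± 0.36. On the log2 scale the sum of members correlated with that of the 6 markers at r = 0.97 over 48 libraries (0.97 within ALF, 0.85 within TRF), all of which share their library and its scaling. Of the 13 tested genes of the wider stroma list, 11 rose and 1, Ltbr, fell.

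With the log2 level of the 6 markers added as a term, an alternative chosen after the data were seen, 0 of the 32 passed in edgeR (3 at an unadjusted p under 0.05), against 32 of 32 in DESeq2 and in edgeR without the term. Their median log2 fold change was then 0.06. How much of the iWAT result is RNA of a lymph node was not tested beyond these values.

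Other lists moved in iWAT as well. Of 24 further T cell genes 23 rose, of 21 further B cell genes 20 rose and 1 fell, and all 10 natural killer cell genes rose. Plasma cell genes rose in 6 of 9 cases, among them Jchain (1.84 ± 0.37), the joining chain of secreted antibodies. Of 14 macrophage and neutrophil genes 11 rose. In the same libraries 10 of 12 adipocyte genes fell and 1, Cfd, rose, with a summed level at a median of 52357 CPM in ALF and 38373 in TRF. Of 12 genes of skeletal muscle fibres 11 rose, with summed medians of 275 CPM in ALF and 3427 CPM in TRF. The part of these tissues in the result was not tested.

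Genes of the pathways around the members were also tested in iWAT. Of 19 tested homing ligands and receptors (2 of them, Ccr7 and Cxcr5, members) 16 rose, including the adhesion molecule Vcam1 (1.19 ± 0.17), and none fell. The egress receptor S1pr1, which endothelial cells also express, gave 0.03 ± 0.06 (adjusted p = 0.693). Of 16 genes of the interleukin 7 and lymphotoxin pathways 12 rose and 2 fell, these being Ltbr (-0.45 ± 0.07), the lymphotoxin receptor of stroma and adipocytes, and Tnfrsf1a. The cytokine Il7 itself rose by 0.28 ± 0.13 (adjusted p = 0.0491).

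Of the 24 ALF libraries 6 resembled eWAT more than the other iWAT libraries in their whole profile, and no TRF library did. Their members summed to between 66.8 and 764 CPM, and those of the other ALF libraries to between 701 and 5617. Without these 6 libraries 31 of 32 members still passed, and the median log2 fold change was 0.81 in place of 1.29. Leaving out replicate 1 gave 0 of 32 in edgeR (25 at an unadjusted p under 0.05), with adjusted p between 0.065 and 0.29 and a median log2 fold change of 1.15. Without replicate 2 all 32 passed, with a median of 1.70.

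Ratios within a library differed less than levels. B cell members stood to T cell members at a median of 1.39 in ALF and 1.43 in TRF. The log2 levels of Cd79a and Cd3e correlated at r = 0.95 (rho = 0.94, permutation p = 1e-05 for each, 2e-05 after adjustment over 8 tissues), at 0.94 within ALF, 0.92 within TRF and 0.92 without the 2 libraries farthest from the median. A p of 1e-05 is the smallest that 100000 resamples can give. Outside the members, the genes whose levels ranked most like the members' sum over the 48 libraries included Traf3ip3, Rac2, Rhoh, Il21r, Smap2, Fcrl1, H2-DMb2, Nxpe3 and Gpr18, with rho from 0.98 to 0.99.

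eWAT did not share this pattern. Of its 28 tested members 9 were lower in TRF and 1 was higher, where 29% of the 14132 genes tested were lower and 30.2% were higher. The share of members that were lower was thus near the background, and the share that were higher was below it. T cell members summed to a median of 73.3 CPM in ALF and 30.5 in TRF, and B cell members to 47.4 and 35.6. A single T cell member, Il7r, had medians of 39.9 and 3.49 CPM and made up most of the difference between the T cell sums. The levels were far below those of iWAT, and Glycam1 was at 0 in 20 of 24 ALF and 21 of 24 TRF libraries.

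Il7r fell the furthest in eWAT. It ran from 2.70 to 112 CPM in ALF (median 39.9) and from 1.62 to 59.0 in TRF (median 3.49), a log2 fold change of -3.05 ± 0.43 (adjusted p = 1.58e-06), and the TRF mean was above the ALF mean at 1 of 12 clock times. The groups overlapped, with the TRF median close to the lowest ALF library. Cd22, an inhibitory receptor of B cells, ran from 0.614 to 17.5 (median 6.38) and from 0.681 to 11.5 (median 2.10), with -1.61 ± 0.29. Cd6, a T cell adhesion receptor, gave -1.19 ± 0.27, Ccr7 -0.88 ± 0.17, Cd37 -0.82 ± 0.15 and Cd2 -0.65 ± 0.13.

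The lineage-defining members of eWAT did not pass the test. Cd3e gave 0.15 ± 0.25, Cd4 0.12 ± 0.22, Cd79a 0.39 ± 0.20 and Ms4a1 0.43 ± 0.21. Bank1, a B cell adaptor, was the 1 member that rose (0.24 ± 0.08, adjusted p = 0.0117). The other falls were in Fcrla, Lat and Cd247, all at -0.25 to -0.53. Of the 9 members that fell, 4 passed without replicate 1.

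Markers of other cells moved with these falls. Of 14 macrophage and neutrophil genes 12 fell, with the list's sum at a median of 4108 CPM in ALF (1300 to 8769) and 1776 in TRF (1402 to 6338). Of 8 dendritic cell genes 6 fell and 2 rose, and all 12 cell division genes fell. Their part in the falls of Il7r, Cd22, Cd6 and Cd37 was not tested. The sum of the 6 stroma markers was higher in TRF (30.2 and 92.3 CPM, medians), owing mostly to Ccl21a (24.3 and 71.4 CPM). It correlated with the sum of members at r = -0.61 over both feeding groups together. The sum of members itself was lower in TRF (119 and 67.0 CPM, medians). That sum includes Il7r, the member that fell the furthest. Cd3e, Cd4, Cd79a and Ms4a1 gave positive log2 fold changes that did not pass.

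The difference between the fat depots was tested in a joint fit of both, added after the separate results were seen. The effect of TRF was larger in iWAT than in eWAT for 27 of 32 members, where 26.5% of 15076 genes had a larger effect in iWAT. Only 28 of the members passed the count filter in eWAT alone, so the others entered the joint fit through their level in iWAT. The median difference was 1.36 on the log2 scale. Without the libraries closest to another tissue 21 of 32 passed, with a median difference of 0.92. Il7r differed the most (4.16 ± 0.47), then Cd22 (2.94 ± 0.42) and Cd6 (2.36 ± 0.38). Tcf7, Cd79a, Fcer2a, Cr2 and Pax5 did not pass, with differences of 0.82 to 1.09. Without replicate 1, 7 of the 32 passed, where 1422 of 14878 genes had a larger effect in iWAT.

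**Figure D2:**
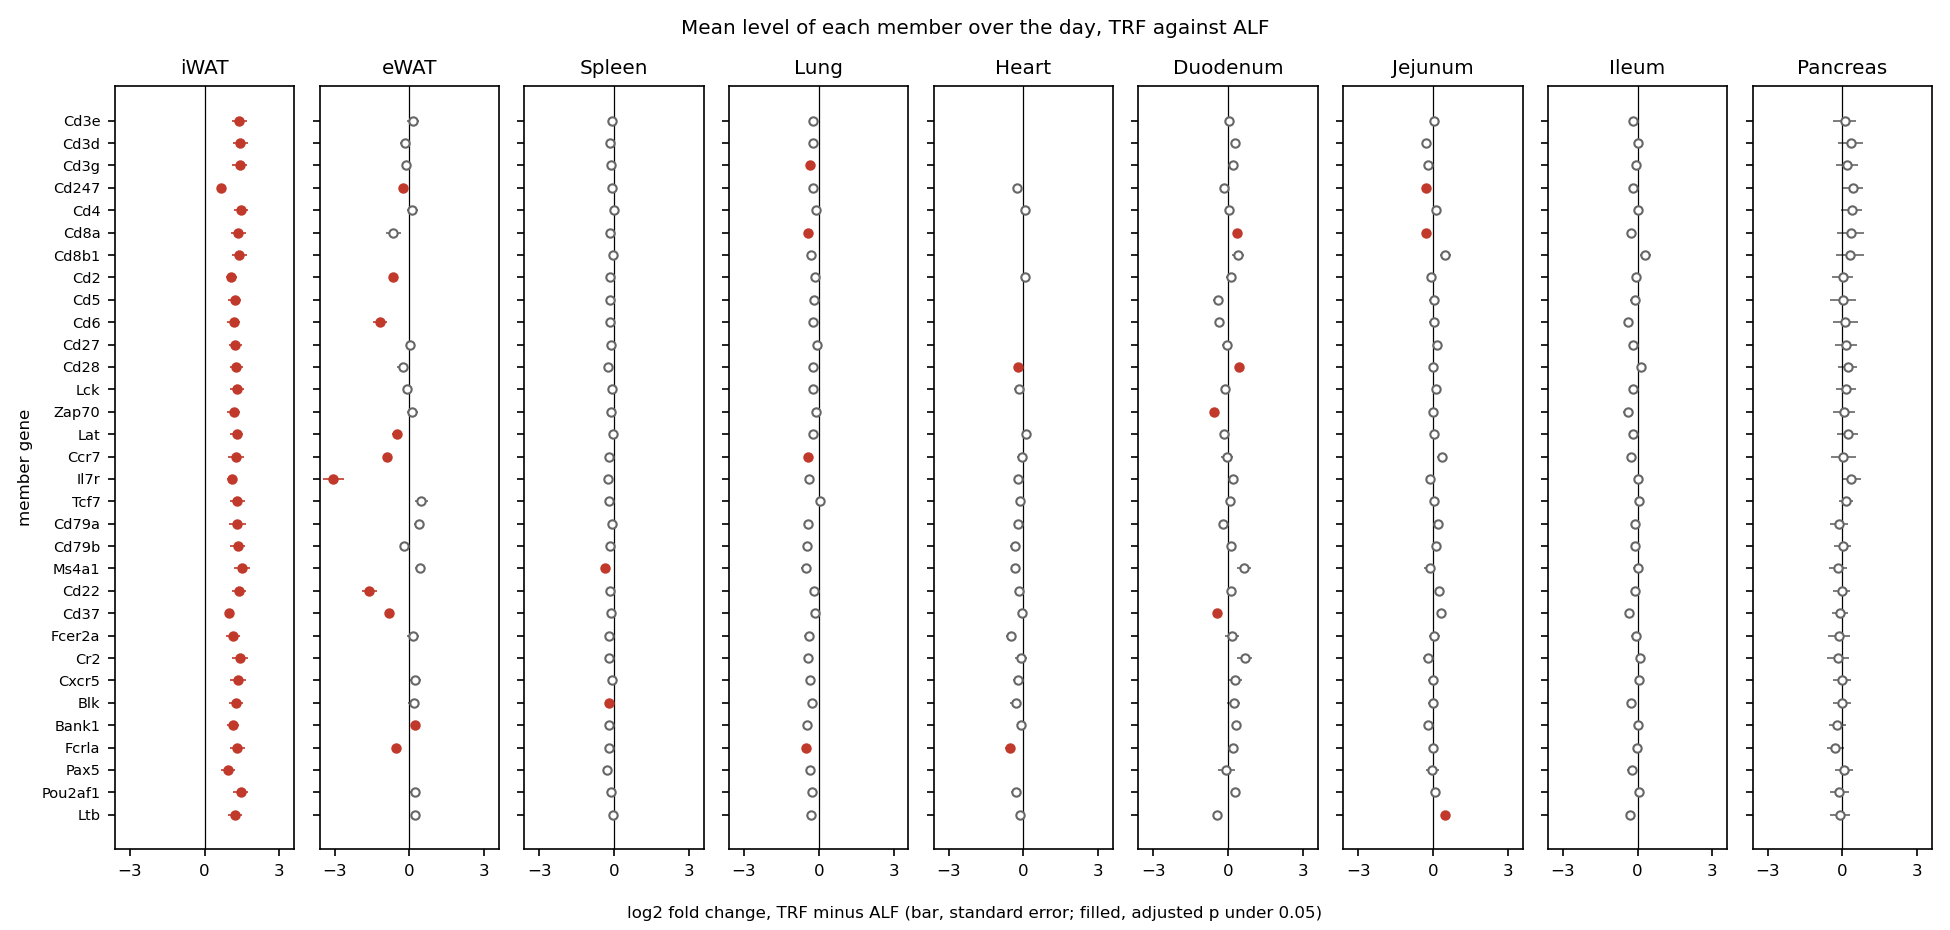
Log2 fold change (TRF minus ALF, with its standard error) of each of the 32 members in 9 tissues, one panel a tissue, filled where the adjusted p was under 0.05. All 32 members lie to the right of 0 in iWAT (0.68 to 1.5), whereas in spleen and lung nearly all lie slightly to the left and in eWAT Il7r and Cd22 lie furthest left.

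In spleen, the organ with the most lymphocytes, all 32 log2 fold changes were negative and small (median -0.16, from -0.35 to -0.01), and 2 members passed. These were Ms4a1 and the B cell kinase Blk, beside 4.49% of the 13779 genes tested that were lower in TRF. A share of 2 in 32 members was near that background. Ms4a1 ran from 423 to 1056 CPM in 23 ALF libraries (median 791) and from 299 to 884 in 21 TRF libraries (median 645), a log2 fold change of -0.35 ± 0.11 (adjusted p = 0.034). Blk ran from 166 to 289 (median 238) and from 151 to 288 (median 209), with -0.19 ± 0.06 (adjusted p = 0.0277). In both genes the groups overlapped, nearly fully for Blk and less so for Ms4a1, and the TRF mean was higher at 1 and at 2 of the 12 clock times.

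No T cell member passed in spleen, where 14 members had an unadjusted p under 0.05 and DESeq2 called 5. Il7r gave -0.23 ± 0.08 and Bank1 -0.19 ± 0.07, each with an adjusted p just above 0.05 (0.0565 and 0.0561). Cd4 gave -0.01 ± 0.09 and Cd3e -0.07 ± 0.08. Further B cell genes were lower in 10 of 21 cases and further T cell genes in 7 of 24. The egress receptor S1pr1 fell by 0.23 ± 0.06.

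The count in spleen varied with the fit: 0 without replicate 2 (5 at an unadjusted p under 0.05), 6 without replicate 1, 7 with GC content offsets and 10 with a replicate block. The shares of all genes under these fits are not given here, so these counts cannot be set against a background. In the same libraries 9 of 12 cell division genes and 5 of 14 macrophage and neutrophil genes rose. Pancreatic acinar RNA, whose organ touches the spleen, summed to between 28.7 and 84924 CPM in ALF (median 142) and between 29.8 and 140871 in TRF (median 3223). Its part in the lower shares of lymphocyte RNA was not tested.

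In lung 31 of the 32 log2 fold changes were negative, Tcf7 being the exception (0.05 ± 0.06), with a median of -0.29. The 4 members that fell were Ccr7, Cd3g, Cd8a and Fcrla, a B cell Fc receptor-like protein, where 0.935% of the 15078 genes tested were lower in TRF. Of the 32, 22 had an unadjusted p under 0.05, and DESeq2 called 7. Without either replicate number edgeR called 0, with 18 and 8 members at an unadjusted p under 0.05.

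Fcrla ran from 5.85 to 25.4 CPM in 23 ALF libraries (median 15.1) and from 4.11 to 26.2 in 23 TRF libraries (median 10.4), with -0.51 ± 0.12 (adjusted p = 0.0211). Ccr7 ran from 6.95 to 29.5 (median 13.9) and from 5.12 to 27.9 (median 10.6), with -0.42 ± 0.10 (adjusted p = 0.0233). The ranges of both groups were nearly the same in each gene. Cd8a gave -0.43 ± 0.11 and Cd3g -0.35 ± 0.10. The largest log2 fold change of a member that did not pass was that of Ms4a1 (-0.52 ± 0.19, adjusted p = 0.114).

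The wide ranges in lung followed the clock. A 24 h cosine passed the edgeR test in 19 of 32 members in ALF and 31 of 32 in TRF, where 42.6% and 37.7% of all genes passed. The exception in TRF was Cd4 (amplitude 0.23 ± 0.09, adjusted p = 0.145). Peaks of the passing members averaged ZT7.17 in ALF and ZT7.12 in TRF, in the light phase.

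Lck, the kinase that starts T cell receptor signalling, had a log2 amplitude of 0.76 ± 0.09 in TRF with a peak at ZT7.11. Its level was 22.5 CPM at ZT6, where TRF has a single library, 23.4 and 13.4 CPM in the libraries of ZT8, and lowest at ZT22 (mean 5.76 CPM). Cd79a had an amplitude of 1.07 ± 0.21 in TRF with a peak at ZT6.82, and its mean was 84.6 CPM at ZT4 and 10.9 CPM at ZT14, the first clock time after food became available. In ALF its amplitude was 0.67 ± 0.20, with means of 81.2 CPM at ZT2 and 22.4 CPM at ZT22. Cd79b, Fcer2a and Pax5, of B cells, had amplitudes of 1.11, 1.05 and 1.04 in TRF, and among T cell members Cd8b1 had 0.98.

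The sum of members in lung showed the same course. In TRF its mean was 635.5 CPM at ZT4 and 617 at ZT8, 551 at ZT12 and 231 at ZT14, and lay between 222 and 315 from ZT16 to ZT0. In ALF the mean was 704 at ZT2 and 332 at ZT22, with 381 at ZT14. The test of the difference in rhythm between TRF and ALF called 0 of the 32 members in edgeR (5 at an unadjusted p under 0.05), where 0.0398% of all genes passed. No other tool was run on the rhythms.

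Natural killer cell genes in lung passed the rhythm test in 9 of 10 cases in TRF and 4 of 10 in ALF. Of all lung genes 37.7% passed in TRF and 42.6% in ALF. The peak times of the natural killer cell genes were not compared with those of the members. Macrophage and neutrophil genes passed in 2 of 14 in TRF and 3 of 14 in ALF, and erythroid genes, a measure of blood in the tissue, in 4 of 11 and 2 of 11. Genes of the lymph node stroma list passed in 4 of 8 in TRF and 6 of 8 in ALF, and their peak times are not given here. In lung Glycam1 was at 0 in 18 of 23 ALF and 13 of 23 TRF libraries. In TRF the list summed to between 580.5 and 691 CPM from ZT2 to ZT10. From ZT14 to ZT0 it summed to between 644 and 1080, so the ranges overlapped. The sum of the 6 stroma markers used above lay between 101 and 173 CPM in the former libraries and between 95.7 and 169 in the latter. Muscle genes passed in 8 of 8 in TRF and 1 of 8 in ALF. Their whole list summed in TRF to a median of 34.5 CPM, with a mean of 97.2 and a highest library at 1471. The part of that highest library in these calls was not tested. The part of blood content in the rhythm was not tested. The genes whose levels ranked most like the members in lung included Gimap3, Fcmr, Xkrx, Cd72, Ly6d, H2-DMb2, Blnk, H2-Oa and a row the table names Sep-01, with rho of 0.92 to 0.95. Without replicate 1 the counts of rhythmic members were 4 in ALF and 11 in TRF, and without replicate 2 they were 4 and 20. The shares of all genes in these fits are not given here.

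Heart, tested for rhythms after the lung was seen, gave 7 of 22 tested members in ALF and 19 of 22 in TRF, beside 33.4% and 51.2% of all genes. The difference called 0 of 22 in edgeR (5 at an unadjusted p under 0.05), where 5.18% of all genes passed. Peaks of passing members averaged ZT7.84 in ALF and ZT6.28 in TRF. In ALF Cd28 peaked in the dark phase, at ZT14.8, and the other passing members between ZT5.09 and ZT10.0. Tcf7 had an amplitude of 0.69 ± 0.09 in TRF with a peak at ZT6.41, and Cd79a one of 0.84 ± 0.19 with a peak at ZT5.74. Levels were low: the mean of Cd79a was 5.87 CPM at ZT6 and 0.529 CPM at ZT14. Without replicate 1 the counts were 0 of 20 in ALF and 5 of 20 in TRF, and without replicate 2 that in ALF was 2 of 20. Shares of all genes are not given here for these fits.

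No member was rhythmic in spleen, in ALF, in TRF or as a difference (1, 2 and 0 at an unadjusted p under 0.05), where 0.414%, 2.99% and 0% of all genes passed. A joint fit, added after these results were seen, tested whether 24 h terms common to both feeding groups differed between tissues. They differed between lung and spleen for 25 of 32 members (19.1% of all genes) and between heart and spleen for 24 of 32 (24.3% of all genes). Between lung and heart they differed for 6, namely Cd4, Cd2, Cd28, Lck, Il7r and Tcf7, all T cell members, where 48.5% of all genes differed. The CD3 chains Cd3e, Cd3d and Cd3g did not pass there (edgeR adjusted p = 0.634, 0.324 and 0.265). They had not passed the count filter in heart alone. In heart alone 22 members passed the count filter, so the others entered the fits with heart through their level in spleen or lung. Of these others, Cd3e, Cd8a, Cd8b1, Cd6 and Pax5 are among the 24 called between heart and spleen. Without replicate 1 the members called in the 3 fits were 6, 2 and 2, beside 192 of 15706, 828 of 15079 and 3252 of 15447 genes. Without replicate 2 they were 13, 17 and 5, beside 645 of 15336, 1072 of 14819 and 4085 of 15361 genes.

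**Figure D3:**
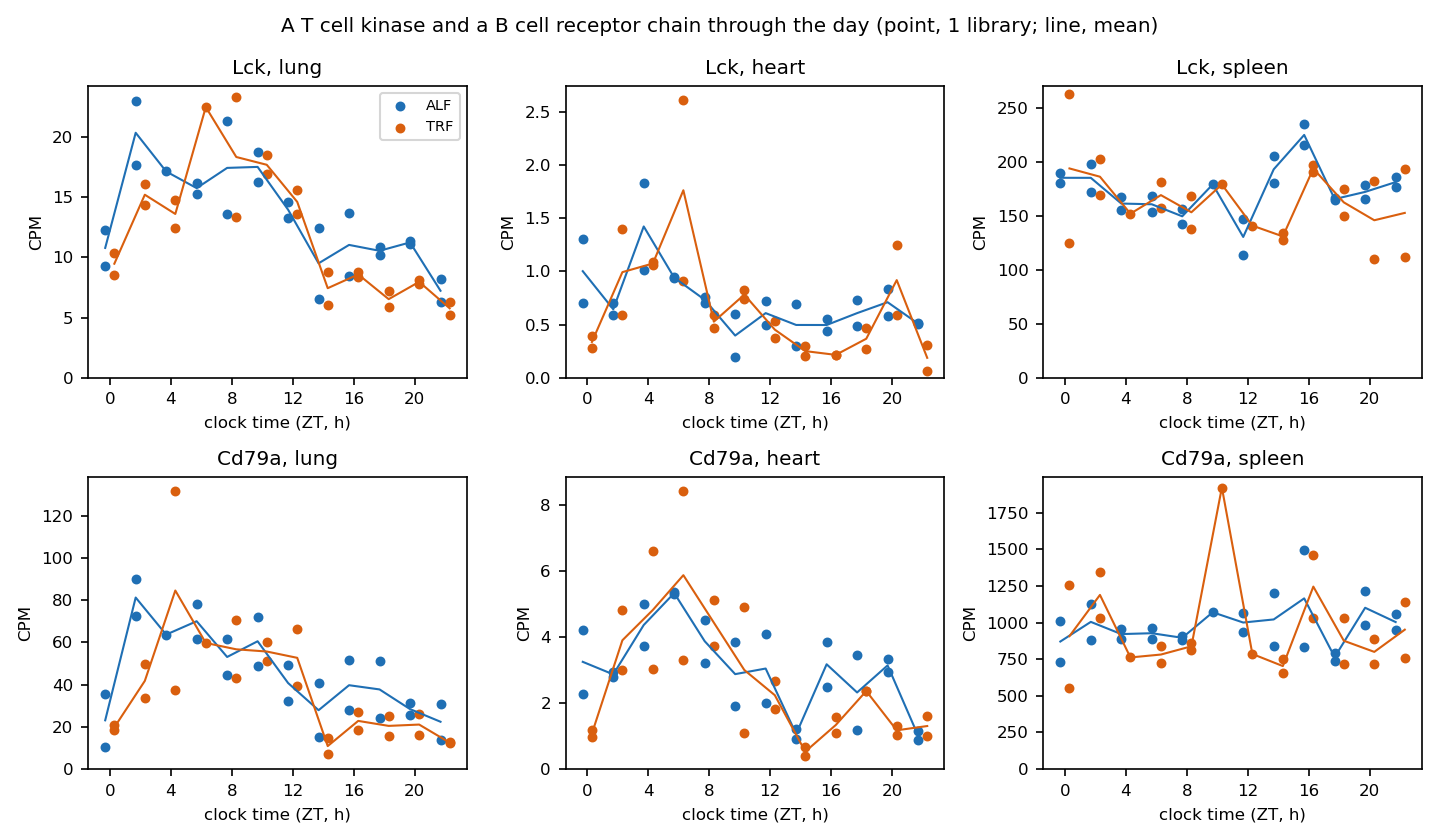
Level (CPM) of Lck (upper row) and Cd79a (lower row) in each library of lung, heart and spleen by clock time (ZT, h), with a line through the means of a clock time in ALF and in TRF. In TRF the fitted peak of both genes lies in the light phase in lung and in heart. In heart in ALF neither gene passed the edgeR test of a rhythm (adjusted p = 0.0693 for Lck and 0.0742 for Cd79a). Spleen shows no daily course that passed the test.

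In heart the mean level over the day fell in Cd28 (-0.23 ± 0.06) and Fcrla (-0.54 ± 0.20), where 15.5% of genes were lower. Cd28 ran from 7.06 to 14.6 CPM in ALF (median 9.27) and from 4.98 to 10.2 in TRF (median 7.97), and the groups overlapped. Neither call was kept without replicate 2. In adrenal gland 6 of 15 tested members fell (Bank1, Cd37, Cd3g, Cd79a, Cd79b and Zap70), beside 15.3% of genes lower. Bank1 was the largest of these (-0.87 ± 0.21), at medians of 1.02 CPM in ALF and 0.703 in TRF. All 6 had medians under 4 CPM. Of the 6, 1 passed without replicate 2 and 0 without replicate 1, where 4 were tested. Rhythms outside lung, heart and spleen are not described here as a set. In adrenal gland in TRF, Cd79a (peak ZT6.57) and Cd22 (ZT6.99) passed the edgeR rhythm test (adjusted p = 0.000768 and 0.000761). Cd3g and Ltb did not pass it (adjusted p = 0.782 and 0.702). The share of all genes that passed there is not given.

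The small intestine gave few and mixed calls. In duodenum Cd8a rose (0.37 ± 0.12, from 5.66 to 6.84 CPM in the medians) and so did Cd28 (0.43 ± 0.14), while Cd37 (-0.47 ± 0.15) and Zap70 (-0.57 ± 0.18) fell, where 19.9% of genes were higher and 20.9% lower. In jejunum Ltb rose (0.47 ± 0.16) and Cd247 (-0.29 ± 0.12) and Cd8a (-0.28 ± 0.11) fell, where 22.7% of genes were higher and 22.3% lower. Shares of 1 or 2 members in 32 were below the background in both segments, and with GC content offsets none of these 7 calls was kept. In ileum edgeR and DESeq2 called 0 of 32 members (4 at an unadjusted p under 0.05 in each), where 9.05% of genes passed in either direction. Without the library of duodenum and that of ileum that resembled each other, the counts were 2 higher and 3 lower in duodenum and 0 in ileum.

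In ileum the members summed to between 162 and 358 CPM in ALF (median 249.7) and between 146 and 402 in TRF (median 228). Duodenum medians were 168 and 191, and jejunum medians 170.1 and 172. These ranges overlapped almost fully between the feeding groups.

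Pancreas gave 0 of 32 in edgeR and in DESeq2 (0 at an unadjusted p under 0.05), where 7.28% of genes passed, and yet had the widest range of all tissues as a fold between its highest and lowest library (109-fold). The sum of members ran from 17.2 to 1269 CPM in 24 ALF libraries (median 152) and from 11.7 to 746 in 22 TRF libraries (median 298). Its highest library was ALF at ZT0, replicate 2, with Glycam1 at 34.2 CPM, and in its lowest 4 libraries Glycam1 was at 0. The members correlated with the 6 stroma markers at r = 0.92 over 46 libraries. The genes that ranked most like them were Gimap3, Sash3, Cd74, Rac2, Il2rg, Arhgdib, Ikzf1, H2-Aa, Ptprc and Spib.

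Elsewhere calls were scattered. In liver Cd4 rose (0.75 ± 0.21), from 0.108 to 7.27 CPM in ALF (median 2.84) to 2.82 to 9.29 in TRF (median 5.03), where 9.81% of genes were higher. Cd79a (-0.72 ± 0.20) and Lck (-0.40 ± 0.14) fell there at levels under 2 CPM, where 10.9% of genes were lower. In hypothalamus Zap70 (-0.32 ± 0.07), Cd37 (-0.33 ± 0.10) and Cd79b (-0.90 ± 0.33) fell, where 16.2% of genes were lower. None of the 3 in liver was kept without replicate 2, and none of the 3 in hypothalamus with GC content offsets. In hypothalamus 1 ALF library, ZT8 replicate 2, had a sum of 169 CPM against a median of 23.2.

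Muscle showed the same unevenness without a call. Its members summed to between 10.6 and 25.3 CPM in 44 libraries and to between 111 and 253 in 4, which were ALF at ZT10 and TRF at ZT0, ZT16 and ZT22, all of replicate 2. In those 4 libraries Cxcl13 was at 5.63 to 12.0 CPM. Cxcl13 was not particular to them, since an ALF library of ZT4 (replicate 1) had 9.06 CPM of it with a member sum of 12.9 CPM. Glycam1 was at 1.70 to 8.83 CPM in the 4 libraries and at 0.299 CPM or less in every other muscle library. The ALF library of ZT10 was also the deepest of the series (501 M).

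The lineages were also set against each other within each tissue. The sums of T and B cell members correlated, on the log2 scale, at 0.96 in iWAT, 0.93 in pancreas, 0.89 in lung, 0.82 in eWAT and 0.69 in spleen, and at 0.58 to 0.64 in the 3 gut segments. In eWAT single members did not follow the sums as closely: the median T cell member followed the B cell sum at rho = 0.21, and the median B cell member followed the T cell sum at rho = -0.04. These points share the library and its scaling and are given as a description. The pair Cd79a and Cd3e, tested by permutation in 8 tissues, correlated at r = 0.90 in pancreas (rho = 0.89), 0.83 in lung (rho = 0.81) and 0.77 in spleen (rho = 0.68), with permutation p = 1e-05 for each r and rho (2e-05 adjusted). Without the 2 farthest libraries these were 0.87, 0.79 and 0.72. Within ALF and TRF they were 0.88 and 0.92 in pancreas and 0.75 and 0.89 in lung.

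In spleen the pair correlated at r = 0.93 within TRF and at r = 0.24 within ALF (permutation p = 0.28, 0.4 adjusted). In duodenum r was 0.27 (permutation p = 0.059, 0.094 adjusted) and rho 0.24 (permutation p = 0.094, 0.13 adjusted). In eWAT r was 0.19 (permutation p = 0.19, 0.25 adjusted) and rho 0.27 (permutation p = 0.069, 0.11 adjusted). Neither passed. Ileum (r = 0.14, permutation p = 0.34, 0.39 adjusted; rho = 0.13, permutation p = 0.37, 0.42 adjusted) and jejunum (r = 0.02, permutation p = 0.9, 0.9 adjusted; rho = 0.03, permutation p = 0.82, 0.82 adjusted) did not pass either. Without the 2 farthest libraries these were 0.13, 0.24, 0.14 and 0.01. After removal of clock time and feeding, r in duodenum was 0.43 (adjusted permutation p = 0.0037). With a replicate block removed as well, r was 0.57 in duodenum (adjusted permutation p = 8e-05) and 0.41 in jejunum (adjusted permutation p = 0.0046), so the missed calls of these segments hold for the levels as they stand. The residuals hold fewer independent values than libraries, so these p-values are too small. Differences between tissues in these correlations were not tested.

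In gut the T cell members divided. In ileum Ccr7 and Cd2 followed the sum of B cell members (rho = 0.75 and 0.79 over 48 libraries), whereas Cd8a (rho = -0.01) and Cd3g (rho = 0.10) did not. Cd8a also went against the 6 stroma markers there (rho = -0.52), while Tcf7 and Cd28 went with them (0.59 and 0.50). Jejunum gave -0.20 for Cd8a and 0.73 for Cd2 with the B cell sum. In iWAT, by contrast, the 18 T cell members followed the B cell sum at rho of 0.90 to 0.97, and in pancreas at 0.85 to 0.94.

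**Figure D4:**
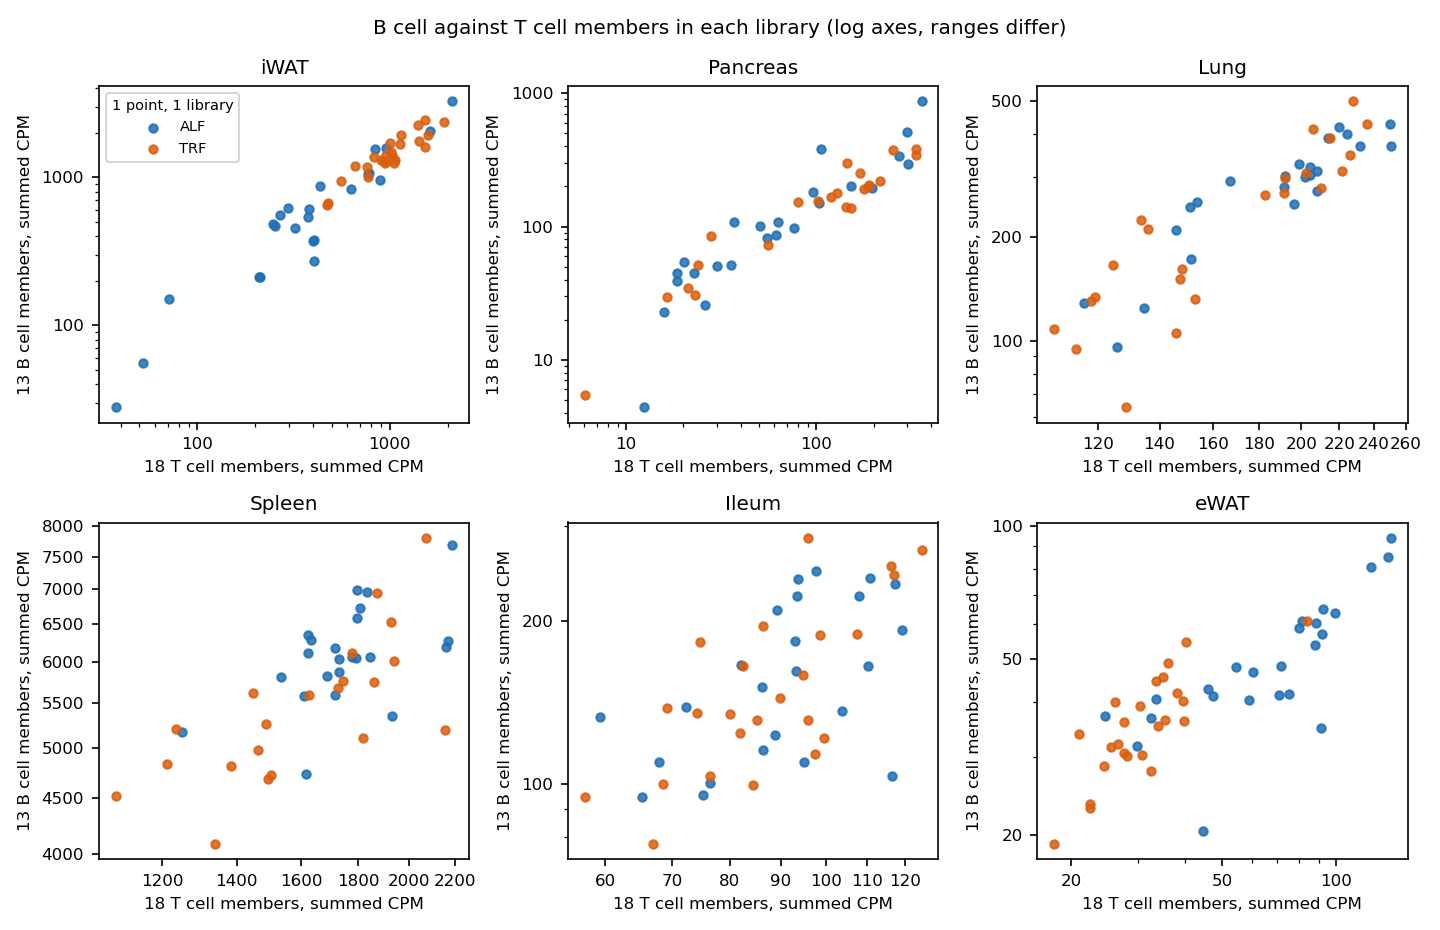
Summed CPM of the 13 B cell members against that of the 18 T cell members in each library of 6 tissues, on log axes whose ranges differ between panels, with ALF and TRF in separate colours. The points of iWAT and pancreas lie along a line over more than a 10-fold range, and those of ileum form a broad cloud within a narrow range.

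**Figure D5:**
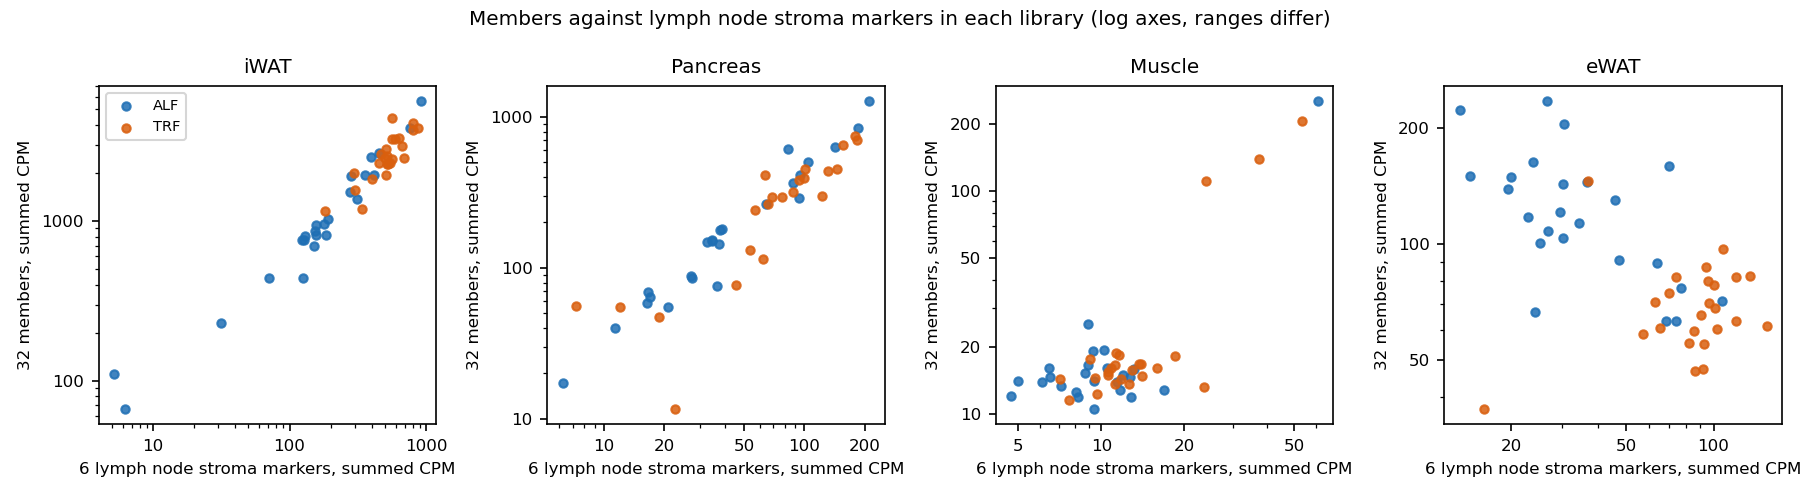
Summed CPM of the 32 members against that of 6 lymph node stroma markers in each library of iWAT, pancreas, muscle and eWAT, on log axes whose ranges differ between panels. In iWAT (r = 0.97) and pancreas (r = 0.92) the members rise with the stroma markers, and in muscle 4 libraries stand apart at the upper right. In eWAT the relation runs the other way over both feeding groups together (r = -0.61), where the sum of members includes Il7r, which fell.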

How the data were processed

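Polyadenylated RNA of 22 tissues was sequenced as stranded libraries, per the labels' protocols. Tools named per the submitters' processing notes are CASAVA 1.8, FastQC 0.11.8, STAR 2.5.3a and HOMER 4.10, with build mm10. The authors deposited estimated counts per gene, 1 column a library, not normalised; 29.62% of the values are not whole and all are multiples of 0.5. How several sequencing runs of a library were joined is not given in the sources used here. Counts were rounded, and 4 rows with repeated names were left out. Genes that share reads with a near-identical copy or an overlapping gene may be split by that counting.

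In each tissue edgeR 4.0.16 (R 4.3.3) was run with its filter on low counts, TMM scaling, a factor for clock time (12 levels) and feeding, the quasi-likelihood test and Benjamini-Hochberg adjustment over all genes (threshold 0.05). Rhythms were a cosine and sine of 24 h. Joint fits of a pair of tissues tested the interaction of tissue with feeding or with the 24 h terms. Alternatives were DESeq2 1.42.0, its size factors, GC content offsets (lowess, span 0.3), no filter, a replicate block, the number of runs as a term, and leaving out each replicate or the libraries closest to another tissue. Correlations used log2(CPM + 0.5) and permutation tests of 100000 resamples, two-sided. The scripts were tested on simulated data.

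The members and the lists of other genes were chosen with earlier results of these data known. All 32 members may be named; genes of the lists are named where their level stands beside a result, and in each of 8 tissues the 10 other genes that rank most like the members' sum, at a mean of at least 1 CPM, were found. A few genes of these lists are not reported here.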

Additional observations from a re-analysis of the deposited data

Results flagged for a closer look

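Effects that differed between tissues, by a test of the difference itself, are listed here. The effect of TRF was larger in iWAT than in eWAT for 27 of 32 members (26.5% of all genes), with Il7r (4.16 ± 0.47 on the log2 scale) and Cd22 (2.94 ± 0.42) at the top. Without replicate 1 it was larger for 7 members, beside 1422 of 14878 genes. Only 28 of the 32 members passed the count filter in eWAT alone. The 24 h course differed between lung and spleen for 25 members (19.1% of all genes), and between heart and spleen for 24 (24.3% of all genes). Without replicate 1 these were 6 and 2, beside 192 of 15706 and 828 of 15079 genes. Between lung and heart it differed for 6 members, all of T cells, a smaller share than the 48.5% of all genes. The CD3 chains Cd3e, Cd3d and Cd3g were not among them. Without replicate 1 it differed there for 2 members, beside 3252 of 15447 genes. Only 22 of the 32 members passed the count filter in heart alone.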

How the results depend on the processing

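Leaving out 1 replicate number at a time moved most counts, and the cause was not tested beyond the smaller number of libraries. Members higher in TRF were 0 to 32 in iWAT, 0 to 2 in eWAT, 1 to 3 in duodenum and 0 to 1 in jejunum. Members lower were 4 to 7 in eWAT, 0 to 6 in spleen, 0 in lung, 0 to 2 in duodenum and jejunum, and 0 to 1 in ileum. Over the 15 other tissues the counts were 0 to 1 higher and 4 lower. Rhythmic members were 4 in ALF and 11 to 20 in TRF in lung, and 0 to 2 in ALF and 5 to 18 in TRF in heart. Members that differed between tissues were 7 to 23 (iWAT and eWAT), 6 to 13 (lung and spleen), 2 to 17 (heart and spleen) and 2 to 5 (lung and heart). The genes called among all in these fits were 1422 to 3431 (larger in iWAT), 192 to 645, 828 to 1072 and 3252 to 4085. For the other counts of this section the shares of all genes are not given, so their changes cannot be set against a background.

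With GC content offsets there were 2 members higher in eWAT, 7 lower in spleen, 1 higher and 0 lower in duodenum, 0 of either in jejunum, and 1 in heart whose rhythm differed between TRF and ALF. DESeq2 gave 5 lower in spleen, 7 in lung and 4 in duodenum. A term for how many runs a library had gave 2 higher in eWAT, 1 lower in duodenum and 0 higher in the 15 other tissues. Without the filter 0 were lower in jejunum and 21 in the 15 other tissues. The lymph node stroma term, added after the data were seen, left 0 in iWAT. The correlation of Cd79a with Cd3e was 0.237 in spleen within ALF, and in duodenum 0.428 after removal of clock time and feeding.

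The replicate numbers did not pair the samples: over 245 comparisons, deviations of same-numbered libraries correlated at -0.831 to 0.822. With a replicate block 10 members were lower in spleen and 4 higher in duodenum, and the correlation of Cd79a with Cd3e was 0.566 in duodenum and 0.415 in jejunum; calls in iWAT stayed at 32. Values of members under about 1 CPM rest on few counts in the shallower libraries, so depth limits both the calls made and the calls missed there.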
